A study of Mus musculus with 12 samples.

Results

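The 3 libraries described here were made from adult mouse heart muscle cells that had received only phosphate buffered saline (PBS), the solvent of the proteins used elsewhere in the experiment. They are 3 of the 12 libraries of the series, chosen by their label alone, and no value entered the choice. In the series, cardiomyocytes of male C57/Bl6 mice aged 12 weeks were isolated, plated in 6-well dishes and kept for 24 h under normoxia with PBS or with 1 of 3 cytokines, mLIF, mOSM or hlOSM, with 3 libraries for each of the 4 conditions. All cells, the PBS cells included, had thus been taken out of the heart and cultured, and no freshly isolated heart tissue was analysed here. The labels do not say whether the 3 PBS libraries came from separate animals or preparations, so every SD below is the spread between 3 libraries, which may be technical.

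The adult ventricular cardiomyocyte is built around sarcomeres, in which thick filaments of myosin pull on thin filaments of actin. Contraction is started by calcium, which enters through channels of the surface membrane and is released from the sarcoplasmic reticulum, and relaxation follows when pumps take it back. Many of the proteins involved exist as families whose members differ between atrium and ventricle, between fetal and adult heart, or between heart and other tissues, so the balance of members describes the state of a cell. Fatty acids are the main fuel of the adult heart, and its mitochondria carry muscle forms of several respiratory subunits.

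The values were counts of reads per gene that had been normalized between libraries and rounded to whole numbers. They summed to 2860660, 2817313 and 2911689 in PBS libraries 1, 2 and 3. A gene was called detected when it had at least 10 normalized counts in each of the 3 libraries, which held for 12036 of 22915 genes and for 11119 of 15318 protein-coding genes with a known length (72.6%). This last share is the reference for the counts of detected genes in each list below. Because long genes collect more reads, genes were compared with each other only as normalized counts per kb of exon, called the level below. The median level of detected protein-coding genes was 29.0, the 90th percentile 109 and the 99th percentile 286 normalized counts per kb. The study gives only an average read number over its libraries, and reads before normalization were not analysed here. The depth behind each value is thus unknown.

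The libraries differed little for well measured genes. The median coefficient of variation was 18.98% for genes with a mean of 10 to 30 normalized counts, 6.13% for 100 to 300, and 3.35% for 1000 or more. Among the 6537 genes with a mean of at least 100, 97.1% lay within 1.2-fold between libraries 1 and 2, 90.04% between 1 and 3, and 91.1% between 2 and 3, and library 3 was the one farthest from both others for 43.8% of them, against 26.9% and 29.3% for libraries 1 and 2. Library 3 therefore stood somewhat apart, and the ratios and shares of the glucose transporters and of the cytokine and endothelin receptors, whose range it widened, are given with and without it. Over 6626 genes, the log2 difference between the libraries of 1 replicate number and those of another, averaged over the 4 conditions, had an SD of 0.0017 to 0.0019, against 0.0588 to 0.0777 if the conditions varied independently. Differences between replicate numbers were thus nearly absent from the deposited values, a gene high in PBS library 3 is offset in the cytokine libraries of that number, and the SDs given here may not show the full spread between preparations.

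The highest levels crowded together. Ckmt2, Lmod2, Ankrd1, Actc1, Mb, Pln, Atp2a2 and Xirp2, the 8 highest protein-coding genes, had mean levels between 591 and 614 normalized counts per kb, the 20th highest reached 459 and the 100th 298. The top level was 2.15 times the 99th percentile of detected protein-coding genes. Whether values still rise in proportion to RNA abundance at this height was not tested, so the order within this group and the ratio of its members to weaker genes are descriptions of the deposited values only.

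All 12 genes chosen as markers of working cardiomyocytes were detected, beside 72.6% of protein-coding genes with a known length. Their mean levels ran from 192 normalized counts per kb for Myoz2, a Z-disc protein, to 592 for Mb, the muscle oxygen store. Their summed level was 4432, 4258 and 4730 normalized counts per kb in the 3 libraries. Ttn, the giant spring of the sarcomere, alone held 1.15% ± 0.0165 (SD, n = 3) of all normalized counts, with 32687, 32934 and 33150 in libraries 1, 2 and 3. The defining genes thus did not go against the label of the cells.

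Light chain and sarcolipin genes of the atrium were near 0 or low, while an atrial peptide gene was high. Myl7, the atrial regulatory light chain, had 1, 1 and 0 normalized counts, and Sln, the atrial brake of the calcium pump, had 0, 1 and 2. Myl4, the atrial essential light chain that the fetal ventricle also uses, had 51, 42 and 61. Nppa, which encodes atrial natriuretic peptide, was far higher at 185, 192 and 179, or 214 ± 7.52 normalized counts per kb, and its neighbour Nppb, which encodes the B-type peptide, had 406, 370 and 366. The level of Nppb exceeded that of Nppa 2.13 to 2.43-fold in the 3 libraries and their ranges did not overlap, but this order rests on the exonic bases counted. The 2 genes lie side by side at chr4:147985788-147987205 and chr4:148000722-148002079 of the mm10 build. Of the exonic bases of Nppa, 61.5% also lie in an exon of a gene on the opposite strand, and whether strand was used in counting is not stated in the sources used here. With exonic bases outside other genes the mean ratio of Nppb to Nppa was 0.876, so that the order turned round, and with windows of 75 bases found in no other gene's transcripts it was 1.18.

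Closely related genes could only be compared where their reads can be told apart, since reads matching several places had been discarded. The coding sequences of Myh6 and Myh7, the alpha and beta heavy chains of cardiac myosin, hold an identical run of 245 bases, longer than the 75-base reads. Their mouse transcripts in GENCODE M21 are shown around that run, from coding position 4231 to 4505 of Myh6 and from 4225 to 4499 of Myh7, counted from 1 at the first base of the start codon, with the 2 bases that differ in capitals.
Myh6: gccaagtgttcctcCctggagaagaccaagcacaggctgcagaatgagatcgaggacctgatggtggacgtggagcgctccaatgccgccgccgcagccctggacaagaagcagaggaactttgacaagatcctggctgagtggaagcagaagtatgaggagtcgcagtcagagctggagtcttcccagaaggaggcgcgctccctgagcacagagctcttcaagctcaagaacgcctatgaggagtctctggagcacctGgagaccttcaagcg
Myh7: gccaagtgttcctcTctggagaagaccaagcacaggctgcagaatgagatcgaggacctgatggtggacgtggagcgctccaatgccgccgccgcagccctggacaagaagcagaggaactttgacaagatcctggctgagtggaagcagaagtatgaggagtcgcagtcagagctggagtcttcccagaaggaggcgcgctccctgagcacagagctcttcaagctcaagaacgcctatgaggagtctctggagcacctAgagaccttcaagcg
In all, 939 of the 5740 windows of 75 bases in the Myh6 coding sequence (16.4%) also occur in that of Myh7.

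The troponins I posed no such limit. Tnni3 and Tnni1, the cardiac and the slow skeletal (fetal) troponin I, shared at most 21 bases in a row, here between coding positions 573 and 633 of Tnni3 and 480 and 540 of Tnni1, with 15 differing bases in capitals.
Tnni3: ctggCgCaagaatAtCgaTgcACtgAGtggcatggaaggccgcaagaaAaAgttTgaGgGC
Tnni1: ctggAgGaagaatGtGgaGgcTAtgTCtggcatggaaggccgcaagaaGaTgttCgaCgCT

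In the thick filament, Myh6 prevailed over Myh7. Myh6 had 3631, 3603 and 4060 normalized counts in the 3 libraries and Myh7 had 457, 463 and 475. Per kb, the level of Myh6 was 9.97 to 10.9-fold that of Myh7, and Myh6 made up 91.2% ± 0.392 of the pair (SD, n = 3). Counting only windows of 75 bases found in the transcripts of no other gene, an alternative chosen after seeing the data, gave 91.3%. Myh6 is among the genes whose levels crowd at the top. Both genes lie in tandem on the minus strand, Myh6 at chr14:54941921-54966927 and Myh7 at chr14:54970684-54994626. Of the other heavy chains, the nonmuscle genes Myh9, Myh14 and Myh10 stood at 92.8 ± 4.11, 55.5 ± 1.59 and 30.02 ± 1.34 normalized counts per kb, and the ranges of Myh14 and Myh7 overlapped. Myh11, the smooth muscle heavy chain, was at 4.04 ± 1.29. In all, 7 of 8 analysed heavy chain genes were detected, beside 72.6% of protein-coding genes with a known length. A further 4 skeletal ones were not analysed here.

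Of the atrial and ventricular light chain genes, the ventricular ones led. Myl2, the ventricular regulatory chain, had 487, 459 and 533 normalized counts beside the 1, 1 and 0 of Myl7. Myl3, the ventricular essential chain, had 741, 713 and 772 and made up 97.1% ± 0.417 of the summed level of Myl3 and Myl4. Myl1, a light chain gene outside these pairs, was detected at a mean of 45.6 normalized counts per kb, above Myl4 at 11.1. Mylk3, the cardiac kinase of the regulatory chain, was at 267 ± 30.6 normalized counts per kb, 51.5 to 59.1-fold above Mylk, the smooth muscle kinase, or a mean of 21.1-fold without division by length. Mybpc3, the cardiac myosin binding protein C, was at 456 ± 21.2, against 17.9 ± 1.37 for Mybpc2, its fast skeletal relative.

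In the thin filament, Actc1 was higher than Acta1 but did not stand alone. Actc1 had 967, 917 and 1029 normalized counts and Acta1 354, 303 and 323, and Actc1 made up 73.8% ± 1.52 of the pair, with 72.2%, 74.2% and 75.2% in libraries 1, 2 and 3. The level of Actc1 was 2.59 to 3.02-fold that of Acta1. Actc1 is also among the genes whose levels crowd at the top, so its ratio to Acta1 describes the deposited values only. Actb, the nonmuscle beta-actin, lay between them at 307 ± 8.80 normalized counts per kb. Acta2, the smooth muscle actin, had 199, 200 and 278 normalized counts and was highest in library 3.

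Of the troponin I and T genes, the cardiac members led. In all, 4 of 7 analysed troponin genes were detected, beside 72.6% of protein-coding genes with a known length. Tnni3 had 608, 584 and 689 normalized counts and Tnni1 5, 2 and 5, so that Tnni3 made up 99.6% ± 0.145 of the pair. Tnnt2, the cardiac troponin T, accounted for 94.0% ± 0.0717 of the 3 Tnnt genes. Tnnc1, the calcium sensor of the thin filament in heart and slow muscle, was at 531 ± 20.3 normalized counts per kb, and its fast skeletal counterpart was not analysed here. Among tropomyosins, which lie along actin, Tpm4 was at 290.1 ± 15.8 and Tpm1 at 227 ± 11.8 normalized counts per kb. This order rests on gene length: Tpm1, which has many alternative exons, had 1425, 1438 and 1563 normalized counts against 615, 623 and 679 for Tpm4, and its share of the family was 39.2% per kb of all exons but 61.4% without division by length. Lmod2, which extends thin filaments in the heart, was at 610.3 ± 39.5.

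Structural genes of the sarcomere and of the contacts between cells were high. Of 27 genes of titin, the M band and the Z disc, 24 were detected, beside 72.6% of protein-coding genes with a known length. Their median level was 147 normalized counts per kb. Actn2, the muscle alpha-actinin that anchors thin filaments, made up 67.3% ± 1.42 of the 4 Actn genes, while the nonmuscle Actn4 and Actn1 stood at 118 ± 6.87 and 89.8 ± 6.87 normalized counts per kb. Des, the muscle intermediate filament, was at 410.0 ± 6.69 and overlapped in range with Actn2. In the intercalated disc, Dsp, which ties desmosomes to desmin, was highest at 381 ± 16.4. Gja1, the ventricular connexin, had a share of 89.0% ± 1.36 among 3 connexin genes, and Gja5, the connexin of atrium and conduction fibres, was at 0.812 ± 0.266.

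**Figure D1:**
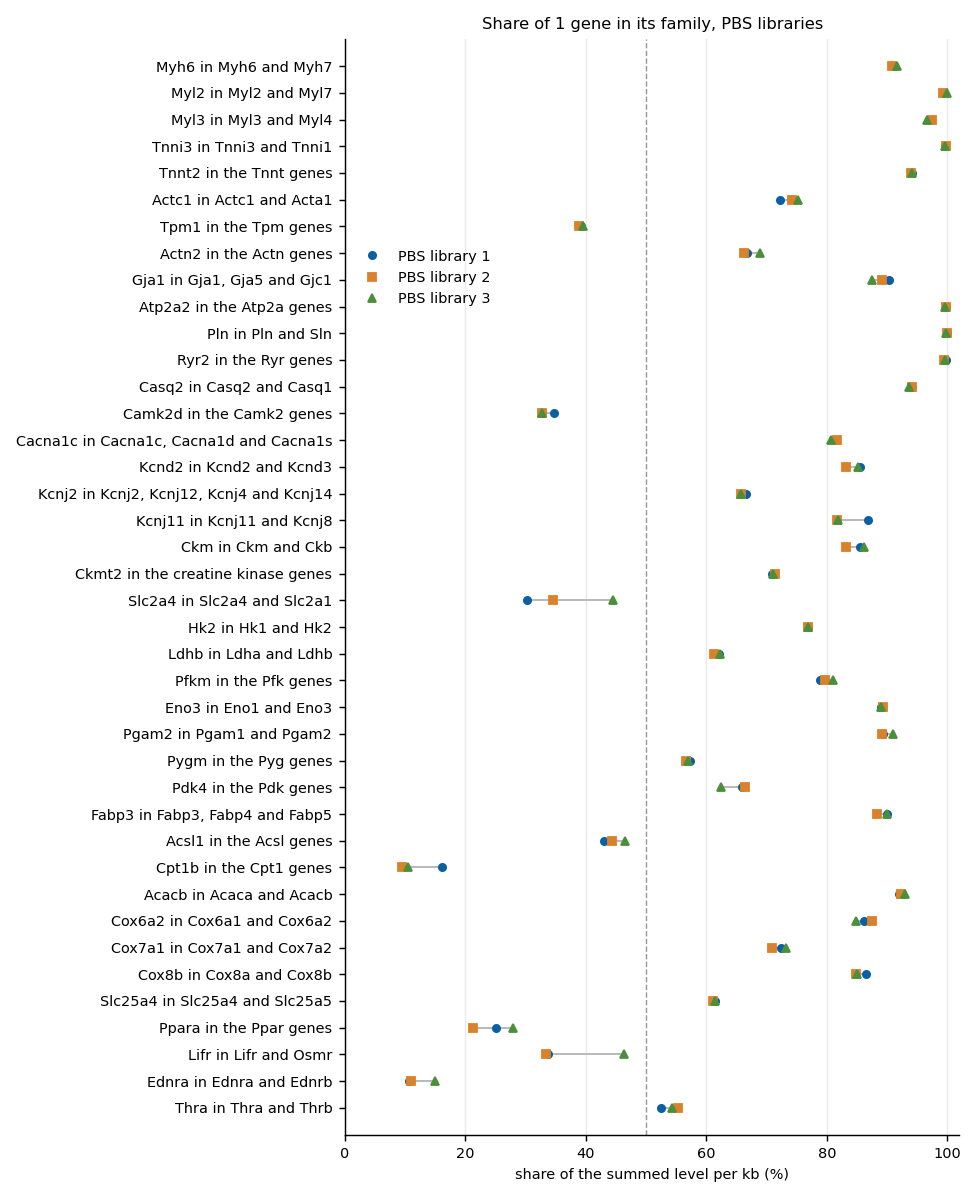
Share of the named gene in the summed level (normalized counts per kb) of its family, in percent, for each PBS library, with a grey line from the lowest to the highest library and a dashed line at 50%. The shares of Myl2, Tnni3, Atp2a2, Pln and Ryr2 sit close to 100% with libraries on top of each other. Those of Actc1, Actn2, Tpm1 and Camk2d lie well below. The shares of Slc2a4 (30.2% to 44.5%) and Lifr (33.4% to 46.4%) spread widest and are highest in library 3.

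Calcium cycling genes were those of the heart, with the skeletal members low. Atp2a2, the sarcoplasmic calcium pump SERCA2, had 3627, 3458 and 3700 normalized counts and made up 99.7% ± 0.113 of the 3 Atp2a genes. Pln, its inhibitor phospholamban, had 1641, 1512 and 1741. Per kb, both were at the top of the range and overlapped, with Atp2a2 at 591 ± 20.4 and Pln at 591 ± 41.6. Of the exonic bases of Pln, 64.7% also lie in exons of other genes, mainly on the opposite strand. With exonic bases outside other genes the mean ratio of Atp2a2 to Pln was 0.358. With windows found in the transcripts of no other gene the ratio was 0.528, but without division by length it was 2.21. The order of Atp2a2 and Pln thus depends on the length used. Ryr2, the release channel, had 5977, 5777 and 6228 normalized counts and made up 99.6% ± 0.111 of the 3 Ryr genes. Casq2, which stores calcium inside the reticulum, exceeded Casq1 14.8 to 16.3-fold. Hrc, a histidine-rich calcium binder, was higher still at 384 ± 16.8 normalized counts per kb, and Trdn and Jph2, which hold the release unit in place, were at 189 ± 2.97 and 115 ± 3.91.

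Among the proteins that bind Ryr2, Fkbp1a was at 61.8 ± 3.69 normalized counts per kb, while Fkbp1b, which encodes the isoform known for binding the cardiac release channel, is listed at 0 in all 3 libraries. In all, 1364 genes of the table are listed at 0 in the 3 libraries, and whether a value of 0 means that no read was present was not tested. Strit1, which stimulates the pump, did not reach 10 normalized counts in every library and had 12, 10 and 7. Its mean level was nevertheless 39.8 normalized counts per kb. The calmodulin kinases did not show a single leading gene, with Camk2g at 64.5 ± 2.50, Camk2d at 55.7 ± 0.848 and Camk2a at 36.5 ± 3.05. Camk2d, the main cardiac kinase gene, made up 33.4% ± 1.13 of the family per kb of all exons but 61.7% without division by length, so its rank depends on the length used.

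**Figure D2:**
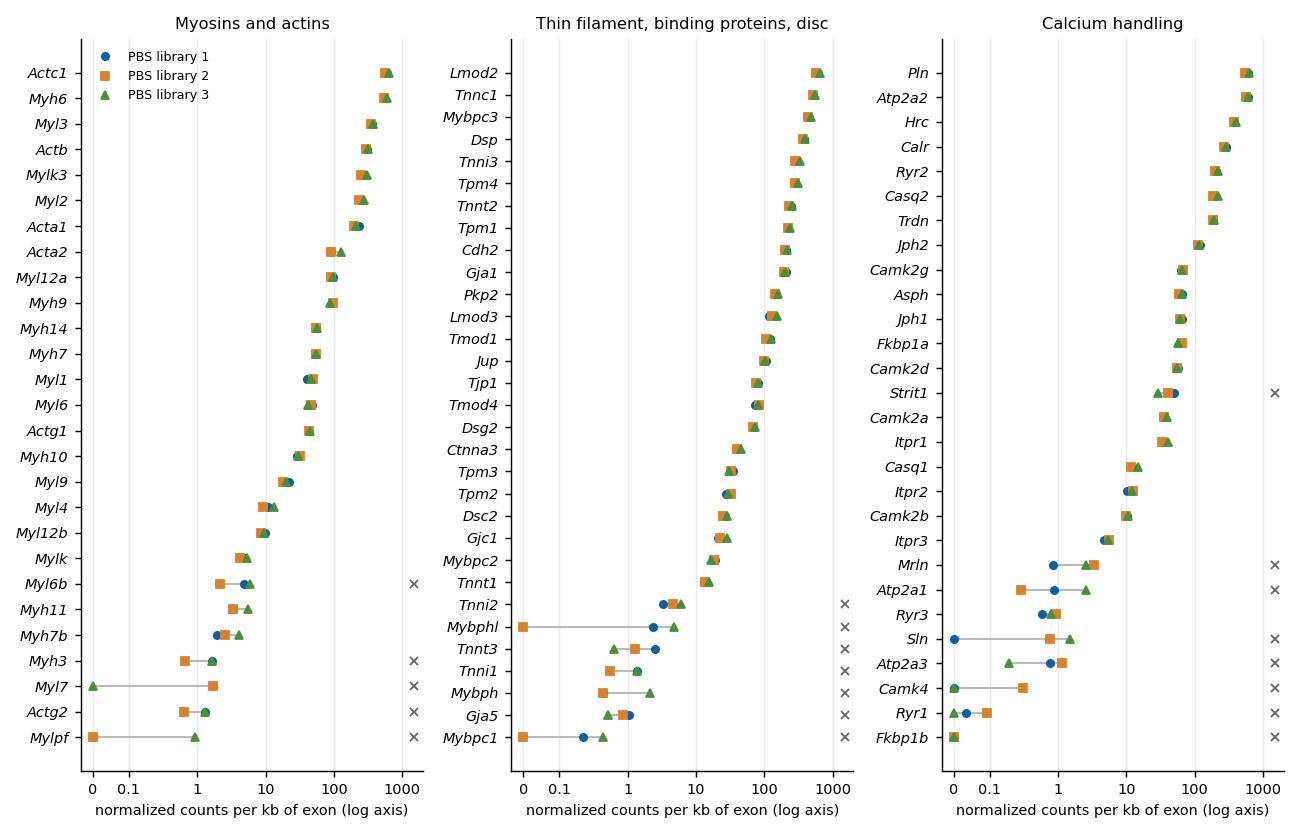
Level of each analysed gene of the myosin, actin, thin filament, intercalated disc and calcium handling lists, in normalized counts per kb of exon on a log axis, with 1 symbol per PBS library and values of 0 drawn at the left edge. A cross marks genes under 10 normalized counts in at least 1 library. Actc1, Lmod2, Pln and Atp2a2 lead their groups near 600, and Myl7, Sln and Fkbp1b sit at the foot.

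Most membrane channel genes had levels below those of the main contractile genes. Of 18 calcium channel, exchanger and pump genes, 13 were detected, near the share of 72.6% over protein-coding genes with a known length. Cacna1c, the pore of the L-type channel, was at 61.0 ± 2.82 normalized counts per kb and made up 81.2% ± 0.514 of its list of 3 genes. The skeletal pore gene Cacna1s was at 12.7 ± 0.688. The accessory gene Cacna2d1 was higher than the pore at 124 ± 6.14, and Slc8a1, the sodium calcium exchanger, was at 82.7 ± 4.60. The T-type genes Cacna1h and Cacna1g, used by fetal and pacemaker cells, were at 2.56 ± 0.369 and 2.30 ± 0.827 with overlapping ranges.

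Among sodium channel and pump genes, the accessory channel gene Scn4b was at 61.0 ± 8.47 normalized counts per kb. Atp1b1, the beta subunit of the sodium pump, was at 263 ± 11.5, and Fxyd1, the pump regulator phospholemman, at 67.2 ± 1.21.

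Potassium channel genes of the transient outward and the inward rectifier currents were detected. Kcnd2, the main outward pore of mouse ventricle, had 220, 220 and 237 normalized counts and was 4.93 to 5.93-fold above Kcnd3 per kb, or a mean of 2.97-fold without division by length. Its partner Kcnip2 was at 41.6 ± 8.58 normalized counts per kb, overlapping with Kcnd2. Kcnj2, the main pore of the inward rectifier, had 375, 384 and 447 normalized counts and made up 66.0% ± 0.537 of 4 Kir2 genes, with Kcnj12 next at 31.6 ± 2.21 normalized counts per kb. Kcna5, a delayed rectifier pore known from adult mouse heart, was not detected at 0.582 ± 0.202.

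The acetylcholine-gated and ATP-sensitive channels were present as well. Kcnj5 and Kcnj3, the subunits of the acetylcholine-gated channel known best from atrium and nodes, were at 64.4 ± 3.84 and 54.0 ± 4.93 normalized counts per kb, and 31.1% of the exonic bases of Kcnj3 are shared with other genes. Abcc9, the sulfonylurea receptor SUR2, was at 111 ± 9.53, against 4.82 ± 1.31 for Abcc8, the receptor SUR1. The pore Kcnj11 was at 19.3 ± 3.81. Pacemaker channel genes were low but measurable, with Hcn2 at 17.1 ± 0.478 and Hcn4, the gene of the sinus node, at 8.06 ± 1.86.

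**Figure D3:**
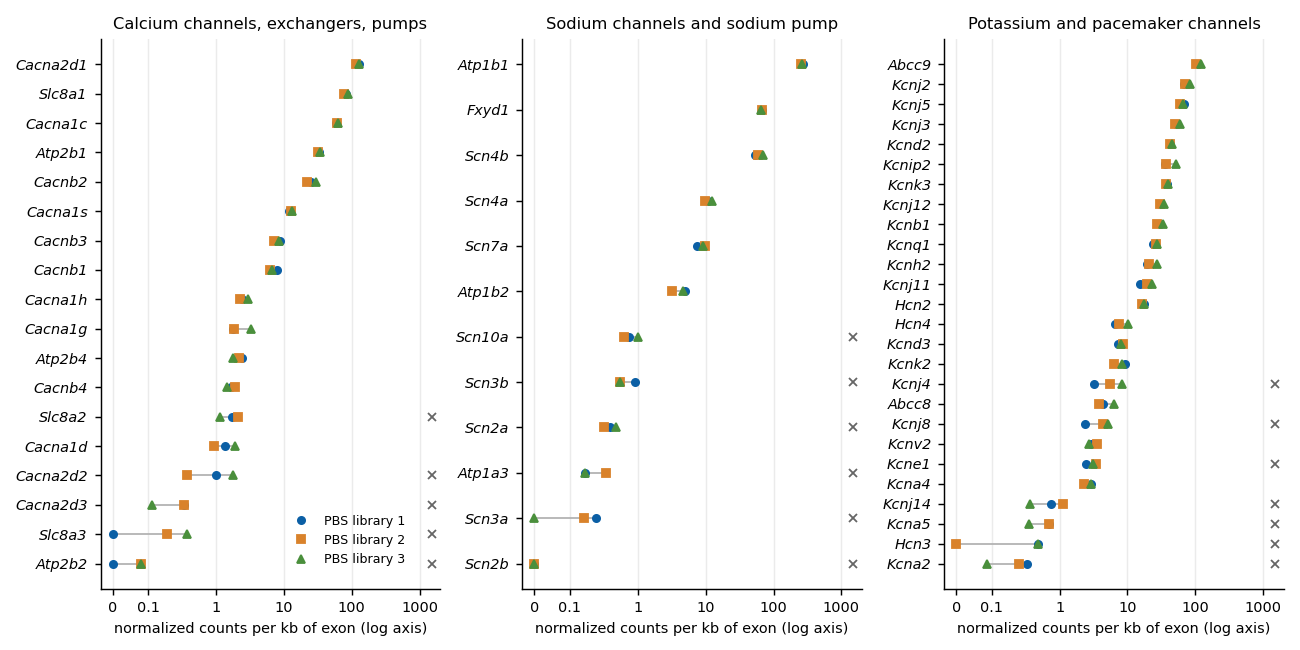
Level of each analysed gene of the calcium, sodium, potassium and pacemaker channel lists, in normalized counts per kb of exon on a log axis, drawn as in the plot of contractile genes, with crosses for genes under 10 normalized counts in at least 1 library. Atp1b1 is the highest gene shown, and the highest potassium channel pore gene, Kcnj2, reaches 82.1 in library 3.

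Energy transfer genes were of the muscle type. Ckmt2, the sarcomeric mitochondrial creatine kinase, had 900, 882 and 954 normalized counts and the highest mean of all protein-coding genes per kb, at 614 ± 25.2, although Lmod2 was above it in libraries 1 and 3 and Ankrd1 in library 1. Ckm, the cytosolic muscle enzyme, was at 211 ± 13.9, and Ckb, the brain form, at 37.2 ± 2.22. Ckm made up 85.0% ± 1.54 of the pair with Ckb. Mb was at 592 ± 25.2, with 31.9% of its exonic bases in exons of other genes.

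Of the metabolic balances, that of glucose entry spread most between the libraries. Slc2a1, the transporter GLUT1 that most growing cells use, had 480, 425 and 369 normalized counts, and Slc2a4, the insulin-responsive GLUT4 of adult muscle, had 206, 223 and 294. Slc2a1 was lowest and Slc2a4 highest in library 3, but Slc2a1 exceeded Slc2a4 in each library. The level of Slc2a1 was 1.25 to 2.31-fold that of Slc2a4. The share of Slc2a4 in the pair was 36.4% ± 7.35 with all libraries and 32.4% without library 3, and the mean ratio was 2.10 without it. Hk2, the insulin-regulated hexokinase of muscle, was 3.33 to 3.34-fold above Hk1, but a mean of 1.81-fold with the longest transcript of each gene.

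In glycolysis, the muscle forms led. Pfkm made up 79.9% ± 1.15 of the 3 phosphofructokinase genes, Eno3 was 8.11 to 8.32-fold above Eno1, and Pgam2 was 8.24 to 10.1-fold above Pgam1. These sizes depend on gene length, although not the order: without division by length, Pfkm had 55.7% of its family, and the mean ratios were 2.65 for Eno3 and 3.77 for Pgam2. With the longest transcript the ratio of Eno3 was 3.43. Eno1 and Pgam1 share 23.0% and 34.9% of their 75-base windows with transcripts of other genes, from which no read could be assigned. Aldoa had the highest mean of the list at 335 ± 13.5 normalized counts per kb, overlapping with Eno3 at 320.5 ± 16.9. Gapdh was at 60.2 ± 2.66, with 22.6% of its windows shared. Ldhb, the heart form of lactate dehydrogenase, stood at 307 ± 20.8 and Ldha at 189 ± 8.38 normalized counts per kb. Their order depends on length too, since Ldha had 642, 595 and 644 normalized counts and Ldhb 500, 445 and 503, and the share of Ldhb was 61.9% per kb of all exons, 51.7% per kb of the longest transcript and 43.5% without division by length.

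At the branch to the citrate cycle, Pdk4, the kinase that shuts pyruvate dehydrogenase and is known to rise with fasting, was at 415 ± 31.8 normalized counts per kb and made up 64.9% ± 2.15 of the 4 kinase genes. It overlapped with Pdha1, a subunit of its target enzyme, at 430.1 ± 12.2. Glycogen phosphorylase was expressed from the muscle gene Pygm at 402 ± 18.5 and from the brain gene Pygb at 302 ± 13.3, with no overlap, but the order turned round without division by length. Slc16a1, the lactate carrier MCT1, was at 118 ± 9.48, and Slc16a3, the carrier of glycolytic cells, was not detected at 1.25 ± 0.217.

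Of the genes of fatty acid use, all 14 uptake genes and 15 of 16 oxidation genes were detected, beside 72.6% of protein-coding genes with a known length. Cd36, the fatty acid transporter, was at 392 ± 16.1 normalized counts per kb, Lpl, which frees fatty acids from lipoproteins, at 251 ± 10.6, and Fabp3, the heart binding protein, at 192 ± 17.4. Acadl and Acaa2, enzymes of the oxidation spiral, were at 558 ± 24.7 and 446 ± 9.34. Acacb, the carboxylase that makes the inhibitor of carnitine transfer, was 11.4 to 13.3-fold above Acaca, the form of fat-making tissues, or a mean of 6.89-fold without division by length and 7.45-fold with the longest transcript.

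The gate of this pathway could not be read. Cpt1b, the muscle carnitine palmitoyltransferase, had 17, 9 and 10 normalized counts, fewer than the 154, 150 and 145 of Cpt1a, the liver form. Of its exonic bases at chr15:89416405-89425863, 81.4% lie in exons of 1 annotated read-through gene on the same strand, and reads matching 2 genes had been discarded. With exonic bases outside other genes of the same strand, an alternative chosen after seeing the data, the share of Cpt1b in the 3 Cpt1 genes went from 12.0% ± 3.57 to 41.8%. The read-through gene was not analysed here, so the balance of the Cpt1 genes is not known from these data.

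Respiratory subunits with a heart and a common form favoured the heart form. Cox6a2 was 5.60 to 6.95-fold above Cox6a1, Cox7a1 2.43 to 2.73-fold above Cox7a2, and Cox8b 5.61 to 6.44-fold above Cox8a. Without division by length the mean ratio was 1.47 for Cox7a1 and 3.44 for Cox8b. Slc25a4, the muscle carrier that exchanges ADP for ATP, was 1.57 to 1.596-fold above Slc25a5. The genes encoded in mitochondrial DNA were not analysed here. All 10 regulators of metabolism were detected at modest levels, beside 72.6% of protein-coding genes with a known length. The highest means were those of Ppargc1a at 63.4 ± 0.695 and Tfam at 61.1 ± 2.53 normalized counts per kb, with overlapping ranges. The fatty acid sensor Ppara, at 15.8 ± 2.88, was below Ppard at 24.9 ± 1.38 and Pparg at 22.9 ± 1.98, whose ranges overlapped with each other.

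Transcripts of all the receptors through which the cytokines of the series act were detected without cytokine. Fibroblast and endothelial markers were detected as well, and which cells carried these receptor transcripts was not tested. Il6st, which encodes the shared signal transducer gp130, had 1904, 1791 and 1944 normalized counts, Osmr, the oncostatin M receptor, 762, 735 and 560, and Lifr, the receptor of leukemia inhibitory factor, 344, 328 and 431. The level of Il6st was 2.66 to 3.79-fold that of Osmr and 4.38 to 5.37-fold that of Lifr. Osmr was lowest and Lifr highest in library 3, yet the level of Osmr was above that of Lifr in each library, 1.16 to 1.99-fold. The share of Lifr in the pair was 33.7%, 33.4% and 46.4% in libraries 1, 2 and 3, a mean of 37.8% ± 7.42 with all libraries and 33.5% without library 3. Without that library the mean ratios were 2.69 for Il6st to Osmr, 5.34 for Il6st to Lifr and 1.98 for Osmr to Lifr. With the longest transcript and all libraries, they were 1.77 for Il6st to Osmr and 3.37 for Osmr to Lifr. Osmr and Lifr lie near each other, at chr15:6813577-6874969 and chr15:7090614-7197489.

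Other members of the gp130 system were lower. Il11ra1 was at 22.3 ± 1.93 normalized counts per kb, with 35.9% of its windows shared with other genes, and Il6ra, the interleukin 6 receptor, at 2.93 ± 0.291. Cntfr was not detected at 0.240 ± 0.415. Behind the receptors, Jak1 was at 126 ± 1.18, Jak2 at 85.8 ± 4.58, Stat6 at 133 ± 2.53 and Stat3, the main factor downstream of gp130, at 109 ± 5.37. Among the ligands, Lif, Clcf1 and Ctf1 were detected at 18.2 ± 2.79, 12.4 ± 0.995 and 10.4 ± 0.950, Il6 had 8, 15 and 11 normalized counts, and Osm is listed at 0 in all 3 libraries.

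Among G protein coupled receptors, the muscarinic receptor Chrm2, through which the vagus slows the heart, was highest, at 156 ± 7.60 normalized counts per kb. It stood 3.78 to 3.93-fold above Adrb1, the main receptor of sympathetic drive, which was at 40.6 ± 2.01, or a mean of 6.86-fold without division by length. The alpha-1 receptors Adra1b and Adra1a were at 7.59 ± 1.40 and 3.74 ± 0.926, and Agtr1a, the angiotensin receptor, at 18.5 ± 1.84. F2r, the thrombin receptor, was at 96.5 ± 10.9. Outside the adrenergic and muscarinic genes, 16 genes of this class were analysed and 7 detected. The share detected over protein-coding genes with a known length was 72.6%. Of the endothelin receptors, Ednrb, at 44.9 ± 4.20, exceeded Ednra, at 6.21 ± 1.32, 5.72 to 8.46-fold, with a mean ratio of 8.27 without library 3, and their order held in each library. Ednrb is also known from endothelial cells, whose markers were detected, and their part in this order was not tested.

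Of the natriuretic peptide receptors, Npr2 was at 23.9 ± 2.04, Npr3, the clearance receptor, at 10.6 ± 1.11, and Npr1, the receptor of both peptides described above, at 6.06 ± 0.627 normalized counts per kb. Corin, the protease that activates the atrial peptide, was higher, at 94.8 ± 4.55. The insulin receptor gene Insr exceeded Igf1r 2.35 to 2.74-fold, with levels of 67.6 ± 4.53 and 27.3 ± 0.745. Erbb2, Erbb3 and Erbb4, the neuregulin receptors, were at 17.6 ± 0.907, 9.36 ± 0.692 and 9.04 ± 1.48, and the ranges of Erbb3 and Erbb4 overlapped. Pdgfra and Kdr, at 61.2 ± 3.66 and 42.3 ± 1.38, are at the same time markers of fibroblasts and endothelial cells.

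Of 16 genes of inflammatory receptors, 14 were detected, beside 72.6% of protein-coding genes with a known length. Ifngr2 led at 121 ± 2.07 normalized counts per kb, followed by Tlr4, the receptor of bacterial lipopolysaccharide, at 97.3 ± 0.550, and Tnfrsf1a, a receptor of tumour necrosis factor, at 90.4 ± 13.6, and the ranges of the latter pair overlapped. Tlr4 had 538, 540 and 544 normalized counts, nearly equal in the 3 libraries, and was 4.76 to 5.23-fold above Tlr2, or a mean of 9.08-fold without division by length. Bmpr1a, a receptor of bone morphogenetic proteins, was the highest of its list at 180.0 ± 8.07. Among nuclear receptors, Nr3c1, the glucocorticoid receptor, led at 139 ± 5.16, against 14.9 ± 2.48 for Nr3c2, the mineralocorticoid receptor, which also binds glucocorticoids. The thyroid hormone receptors Thra and Thrb were at 69.1 ± 3.14 and 58.8 ± 2.50, an order that turned round without division by length.

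**Figure D4:**
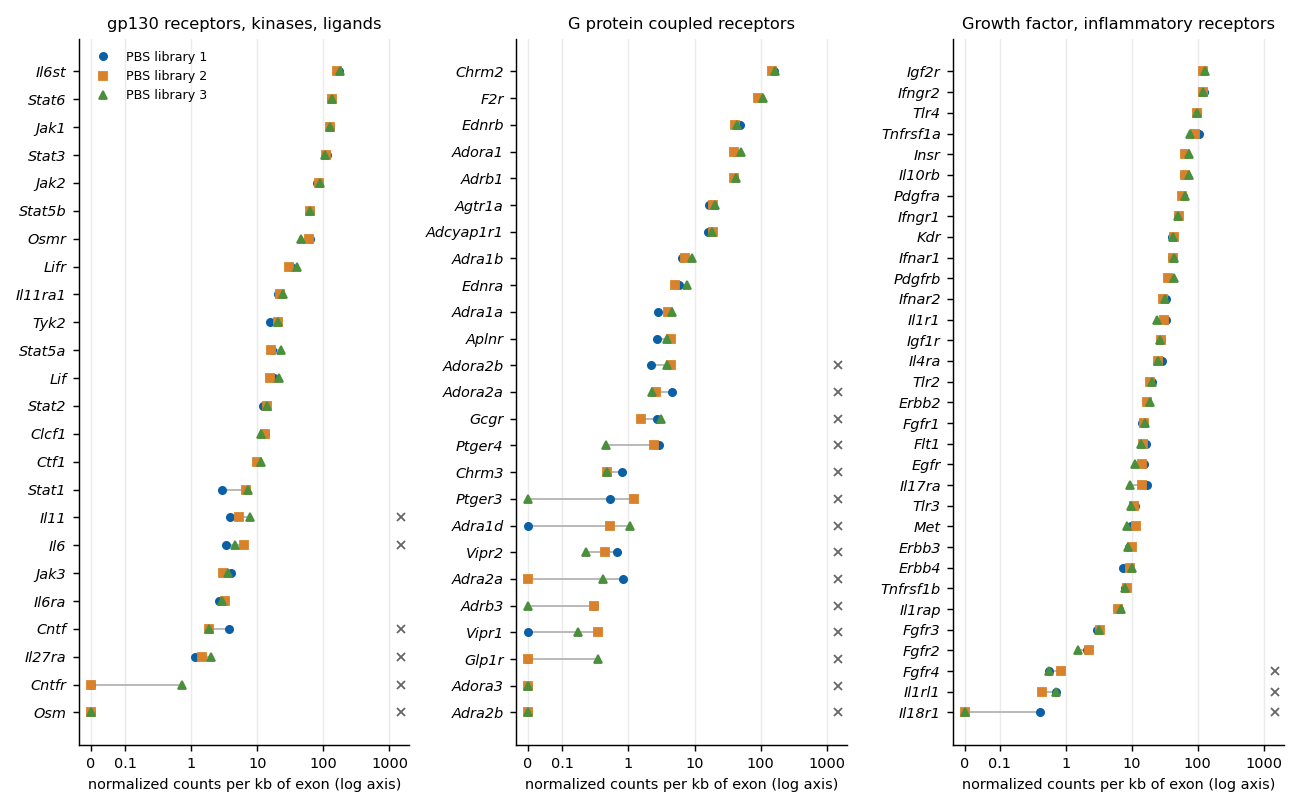
Level of each analysed gene of the gp130, G protein coupled, growth factor and inflammatory receptor lists, with gp130 ligands, Janus kinases and STATs, in normalized counts per kb of exon on a log axis, drawn as in the plot of contractile genes. Il6st, Chrm2 and Igf2r lead their groups, and Osm, Adora3 and Adra2b are at 0 in each library.

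Of 14 analysed genes of cardiac transcription factors, 13 were detected, beside 72.6% of protein-coding genes with a known length. Gata4, Mef2d, Tead1 and Mef2a lay between 90.8 and 100.9 normalized counts per kb, with overlapping ranges between neighbours. Nkx2-5 was at 68.3 ± 4.88, Tbx5 at 55.3 ± 1.42 and Irx4, a ventricular factor, at 35.9 ± 5.62. These levels have no reference before culture, since no fresh tissue was analysed here.

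Several genes known to rise with mechanical or culture stress reached the level of the sarcomere genes. Such levels lie near the crowded top of the range, where proportion to RNA abundance was not tested. This parity thus describes the deposited values only. Ankrd1, a stretch-responsive titin partner, and Xirp2, an actin-binding protein of the intercalated disc, had 1771, 1699 and 1767 and 7185, 7033 and 7026 normalized counts, and both were among the 8 highest genes per kb. Rcan1, the feedback inhibitor of calcineurin, was at 459 ± 31.3 normalized counts per kb. Hmox1, which degrades haem under oxidative stress, had 880, 790 and 694 normalized counts, and Gdf15, a stress-induced secreted factor, 630, 600 and 527. Both were lowest in library 3. All 17 genes of the early response list were detected, beside 72.6% of protein-coding genes with a known length. Among them, Atf3 was at 170.4 ± 19.8, Jun at 138 ± 6.83 and Fos at 66.5 ± 0.649 normalized counts per kb. Fosb was the lowest at 3.10 ± 0.333. Nes, an intermediate filament of immature cells, had 408, 483 and 267 normalized counts, and the intermediate filament Vim, also abundant in fibroblasts and endothelial cells, was at 152 ± 13.3.

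Genes of cell division were unequal. Mki67, which coats dividing chromosomes, had 604, 583 and 718 normalized counts, and Top2a, which untangles DNA, was at 34.0 ± 1.17 normalized counts per kb. The mitotic genes Cdk1 and Plk1 were lower, at 6.22 ± 1.55 and 8.34 ± 1.05, and Ccnb1 was not detected, with 16, 16 and 6 normalized counts. Of 16 genes on this list, 15 were detected, beside 72.6% of protein-coding genes with a known length. Ccnd2, a cyclin of the first growth phase, led at 75.9 ± 3.70. In RNA of a whole culture, these values do not tell which cells carried the transcripts.

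Traces of other heart cells were measured from marker lists, as the summed level of each list relative to that of the 12 cardiomyocyte markers. Fewer cells of a type and less RNA per cell cannot be told apart in such bulk RNA. The lists also differ in their number of genes. Mb, Pln and Myh6 among the cardiomyocyte markers lie in the crowded top of the range, so these percentages are not cell fractions. All 10 fibroblast markers were detected, beside 72.6% of protein-coding genes with a known length. Their sum was 7.46% ± 0.130 of the cardiomyocyte sum (SD, n = 3). Pdgfra, the highest per kb, had 609, 579 and 652 normalized counts, and Ddr2, a collagen receptor and the next in level, had 469, 445 and 468. Col1a1 and Dcn, proteins of the matrix, had 253, 269 and 333 and 230, 222 and 213. Postn, a matrix protein of activated fibroblasts, had 243, 273 and 267, while Cthrc1 and Comp were not detected.

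All 10 endothelial markers were detected too, beside 72.6% of protein-coding genes with a known length. Their sum was 4.90% ± 0.342 of the cardiomyocyte sum. Cdh5 and Pecam1, adhesion molecules of the vessel wall, had 193, 201 and 195 and 251, 255 and 265 normalized counts. The smooth muscle list reached 4.56%, 4.75% and 5.91% in libraries 1, 2 and 3, but Acta2, Tagln and Smtn made up most of it, while Myh11 had 25, 25 and 42 normalized counts and Cnn1, a defining marker, 0, 2 and 2. Acta2, Tagln and Smtn were each highest in library 3. Of 6 pericyte markers, 4 were detected, beside the same 72.6%, with a sum of 2.32% ± 0.114.

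Markers of immune cells and of most remaining cell types were low or not detected. Of the macrophage list, 5 of 10 markers were detected, beside 72.6% of protein-coding genes with a known length. Its sum was 1.75% ± 0.207, and most of it came from Cd68, a lysosomal protein that other cells also hold, with 61, 60 and 40 normalized counts. Csf1r and Adgre1, defining markers, had 29, 31 and 26 and 19, 19 and 18, and C1qa had 5, 5 and 7. No analysed marker of lymphocytes (3 genes), neutrophils (1 gene), neurons (2 genes), mesothelium (5 genes), adipocytes (3 genes), red blood cells (1 gene) or skeletal muscle (3 genes) was detected, and several markers of these lists were not analysed here. Outside that last list, the skeletal genes Mybpc2 and Cacna1s were detected, as given above. The list thus does not show that skeletal muscle transcripts were absent. Of 4 Schwann cell markers, only Cdh19 was detected, at 6.31 ± 0.618 normalized counts per kb, with a list sum of 0.177% ± 0.0199, and of 4 mast cell markers only Kit, which other cells also carry, was detected at 3.10 ± 0.0648.

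For some lists the sum does not stand for the cell type. The atrial list reached 5.09% ± 0.399, of which Nppa, also made by stressed ventricle, was the main part, with Myl7 and Sln near 0 as given above. The lymphatic list reached 2.86% ± 0.277 through Pdpn and Prox1, at 78.5 ± 10.5 and 40.5 ± 1.98 normalized counts per kb, whereas Lyve1 and Ccl21a had 5, 4 and 8 and 1, 0 and 0 normalized counts. Prox1 is also known from cardiomyocytes. Of the conduction list, Tbx3 and Hcn4 were detected, at 12.6 ± 1.61 and 8.06 ± 1.86, and Isl1 is listed at 0.

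**Figure D5:**
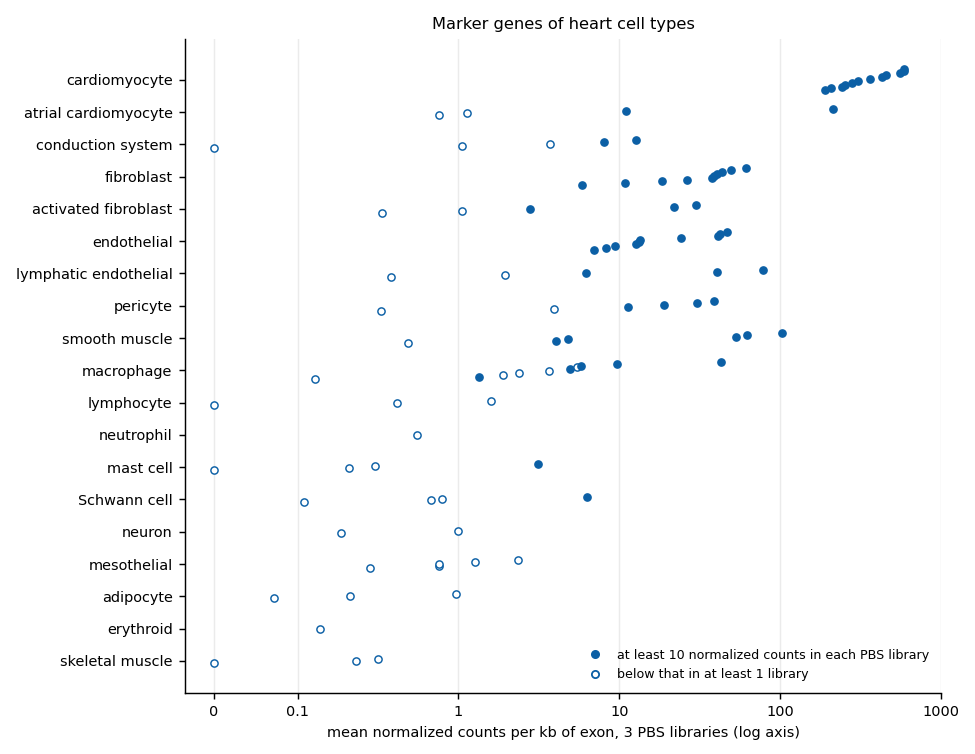
Mean level over the 3 PBS libraries, in normalized counts per kb of exon on a log axis, of each analysed marker gene by cell type list, with filled circles for detected genes and open ones for the rest, and values of 0 at the left edge. The 12 cardiomyocyte markers lie between 192 and 592, above every fibroblast (up to 61.2) and endothelial marker (up to 46.7).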

How the data were processed

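Total RNA of cultured adult mouse cardiomyocytes was sequenced as 75-base single reads from stranded total RNA libraries. Per the labels and the methods of the study, reads were aligned to mm10 with STAR 2.7.7a and counted per gene with featureCounts 1.6.5, leaving out reads that matched several places or several genes. Whether strand was used is not given in the sources used here. The authors deposited 1 table of counts normalized between libraries by a step that is not named, rounded to whole numbers and not divided by gene length, and treated here as a score with no count model. Only the 3 columns of the PBS group were used, except for the check of replicate numbers over all 12 libraries.

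Genes were joined by identifier to GENCODE M21 (mm10), which gave a length for 22876 of 22915 genes, of which 99.1% had the same start and end. A symbol with 2 identifiers was represented by 1 of them. The level is the normalized count divided by the union of exons in kb, and a share is the level of 1 gene over the sum of its family in each library. Values are means ± SD over 3 libraries (Python 3.11.15, pandas 2.3.3, numpy 2.4.6), and the routines were tested on simulated data. Each figure was drawn with matplotlib 3.10.9. No test was run, since 1 group was described and an exact sign-flip test over 3 libraries cannot give a two-sided p below 0.25. Neighbouring genes are said to overlap when the ranges of their library values do. The genes named are all members of 41 gene lists and 19 marker lists (582 symbols, of which 59 were not analysed here), the balances, the 20 highest levels and the 10 widest ranges. A few further genes are not reported here. These members and lists were chosen with earlier results of these data known. Normalized counts cannot separate splice forms of 1 gene. Alternatives are given with the closing observations.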

Additional observations from a re-analysis of the deposited data

How the results depend on the processing

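The depth behind the values is unknown, and levels near the top of the range may not be proportional to RNA abundance. Genes under 10 normalized counts in at least 1 library, such as Tnni1, Myl7 and Cpt1b, entered shares or comparisons with few counts behind them, so their size is uncertain. Balances were recomputed without dividing by gene length, with the longest transcript, with exonic bases outside other genes, and, added after seeing the data, with exonic bases outside other genes of the same strand and with windows of 75 bases in the transcripts of no other gene. The planned count of windows found nowhere else in the genome was not run, as no genome sequence was at hand. Without division by length, the leading gene changed for Ldhb (43.5% of Ldha and Ldhb), Tpm1 (61.4%), Camk2d (61.7%), Pygm (46.8%) and Thra (42.3%), and with the longest transcript for Tpm1 (54.6%) and Camk2d (54.6%). The share of Myh6 was 89.0% without length, 89.2% with the longest transcript and 90.1% outside other genes. Without length, Tnni3 stood at 99.4%, and Kcnj2 at 79.9%, against 63.9% with the longest transcript. Ldhb was at 51.7% with the longest transcript and 65.7% with windows of no other gene. Cpt1b went to 6.08% without length, 8.33% with the longest transcript, 41.4% outside other genes, 41.8% outside those of the same strand and 37.2% with windows of no other gene. Lifr stood at 23.7% of Lifr and Osmr with the longest transcript. As a percentage of the cardiomyocyte marker sum, the fibroblast sum was 4.91% without length, 7.23% with the longest transcript, 5.76% outside other genes and 6.53% with windows of no other gene. The endothelial sum was 2.41% without length, 3.75% outside other genes and 4.21% with windows of no other gene. The macrophage sum was 0.398% without length, 1.32% with the longest transcript, 1.35% outside other genes and 1.51% with windows of no other gene. The number of detected genes was 17427 with a minimum of 1 normalized count and 8319 with a minimum of 50. With each library left out in turn, the share of Slc2a4 lay between 32.4% and 39.6% and that of Lifr between 33.5% and 40.0%. With 3 libraries such a change is always smaller than the SD, so it does not speak for stability. Ratios recomputed under these settings were added after seeing the data and are given beside each ratio of the report that moved by over 1.5 times.

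No paired analysis was possible because only the PBS libraries were used and no groups were compared.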

Other observations

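The genes that differed most between the 3 PBS libraries, chosen as the 10 with the widest log2 range among genes with a mean of at least 100 normalized counts, were of mixed function. Star, which brings cholesterol into mitochondria, had 252, 200 and 99 normalized counts in libraries 1, 2 and 3, and Angptl4, a secreted inhibitor of lipoprotein lipase, had 158, 113 and 68. Xdh, which makes uric acid, had 232, 191 and 115, the transcription factor Runx1 178, 148 and 89, and Serpinb1a, a protease inhibitor, 211, 215 and 111. Nes had 408, 483 and 267, Ndrg1 145, 151 and 79 and Il17ra, a receptor of interleukin 17, 146, 126 and 82. All 8 were lowest in library 3. Il15, a cytokine, had 89 normalized counts in library 1 and 169 in library 3, and Angpt1, a ligand of the endothelial receptor encoded by Tek, had 90, 85 and 164 in libraries 1, 2 and 3, and both were highest in library 3. The log2 range of the 10 genes ran from 0.82 to 1.34, against a median of 0.14 and a 99th percentile of 0.52 over the 6537 genes with such a mean. As given above, differences between replicate numbers were nearly absent on average over the 4 conditions. A low or high value in PBS library 3 is thus offset in the cytokine libraries of that number. What sets library 3 apart was not tested.

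Beside the sarcomere, energy and stress genes already described, the 20 highest protein-coding genes per kb held Hsp90ab1, a general chaperone, at 521 normalized counts per kb, S100a1, a calcium binder of heart muscle, at 489, Rrad, a small GTPase that restrains L-type calcium channels, at 484, and Sqstm1, an autophagy receptor, at 473. They also held Eef1a2 and Eef2, which drive the elongation of proteins, at 481 and 463, and Atp5a1, a subunit of the ATP synthase, at 461. The 10 genes with most normalized counts held 2.92% ± 0.0407 (SD, n = 3) of the total. They included the long noncoding RNA Malat1, with 5174, 4830 and 4954 normalized counts. Protein-coding genes made up 97.7% of the total, long intergenic noncoding genes 0.743% and antisense genes 0.32%.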
